A study of Mus musculus with 2 samples.

Results

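Clusters 1 and 5 of the authors' cell annotation, the 2 clusters with the fewest UMIs in a median cell, were compared with each other in the tumors of 2 mice. Cells were taken by the cluster number that the annotation gives them, which left 846 cells of cluster 1 and 549 of cluster 5, together 1395 of the 9159 annotated cells. A UMI (unique molecular identifier) marks 1 captured transcript, and UMIs, not reads, were counted. The tumors came from MMTV-PyMT mice, in which a mammary promoter drives the polyoma middle T oncogene and luminal tumors form. All cells share 1 genotype and treatment. The mice carried Krt8-CreERT, by which tamoxifen switches on Cre under the promoter of the luminal keratin gene Krt8, and Rosa26-mTmG, a reporter that turns green where Cre acts. They received 150 mg/kg tamoxifen on 3 days each in weeks 5 and 6. Tumors were taken at 1.5 cm3, and live GFP+ cells without CD31 or CD45 were sorted for 1 droplet library per mouse. Cluster 1 held 345 cells of mouse 1, or 9.01% of its annotated cells (8.12 to 9.96%), and 501 cells or 9.40% of mouse 2 (8.63 to 10.2%). Cluster 5 held 277 cells or 7.23% (6.43 to 8.10%) and 272 cells or 5.10% (4.53 to 5.73%). Intervals here and later are at 95% by the exact Clopper-Pearson method and reflect counting error alone.

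Cytosolic messenger RNA is spliced and exported from the nucleus, translated on ribosomes and lost first when a cell membrane leaks, whereas some long noncoding RNAs, newly made transcripts and ribosomal RNA precursors stay in the nucleus, and mitochondrial transcripts stay inside the organelle. The shares of mitochondrial, ribosomal protein and nuclear-retained transcripts are therefore usual readouts of what a droplet holds. Messenger RNAs of immediate early genes, which cells make within minutes of a stimulus such as tissue digestion, are short-lived.

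The sorted cells were labelled as mammary epithelial carcinoma, and luminal keratins were checked first. With 500 UMIs drawn at random from every cell, Krt8 had a UMI in 54.2% and 57.5% of cluster 1 cells in mouse 1 and mouse 2, and in 63.2% and 79.0% of cluster 5 cells. Krt18 had one in 62.9% and 61.3% against 64.3% and 77.9%. Barcodes outside the annotation that carried several leukocyte genes, 23 and 163 in the 2 mice, should lack keratins and gave 8.70% and 17.2% for Krt8 and 8.70% and 15.3% for Krt18 at the same 500 UMIs, with a median of 5934 and 4662 UMIs before thinning. Without thinning, Krt8 had a UMI in 73.9% and 73.3% of cluster 1 cells and in 81.9% and 91.5% of cluster 5 cells. Both clusters thus carried the luminal keratins in more cells than the leukocyte barcodes did. Those barcodes were deeper before thinning than a median cell of either cluster, so the keratin background at the depth of these clusters was not measured.

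Both clusters were shallow, but only cluster 1 was so throughout. Cluster 1 cells had a median of 1258 and 1009 UMIs in mouse 1 and mouse 2, the lowest of the 18 clusters in each mouse, and an upper quartile of 1854 and 1555. The median cell of cluster 5 held 2059 and 1638.5 UMIs, the next lowest, with an upper quartile of 9658 and 4633. The medians of the other 16 clusters ran from 2908 to 33079 UMIs in mouse 1 and from 2085 to 26972 in mouse 2. Cells with 5000 UMIs or more made up 31.8% and 22.4% of cluster 5 and held 82.3% and 68.4% of its UMIs, whereas in cluster 1 they made up 3.77% and 2.99% and held 14.2% and 18.1%. A median cell of cluster 1 had 563 and 530 genes and one of cluster 5 733 and 715.5. At 500 UMIs per cell, which no cell fell short of, the medians were 278 and 302 genes against 323 and 333, so thinned cells of cluster 1 held fewer genes in both mice. Cells matched by depth and not thinned, as described with the depth bins, had medians of 565 and 566.5 genes against 528 and 568.5. With 2 mice an exact paired permutation test cannot reach 0.05, and no test of such medians was made.

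The clusters lay at or near opposite ends of the series in their mitochondrial and ribosomal protein shares. The deposited mitochondrial share had a median of 9.39% and 7.56% in cluster 1 and of 2.93% and 2.17% in cluster 5, and the means were 9.63% and 8.44% against 4.41% and 3.8%. By the mean, cluster 1 ranked 2nd of the 18 clusters from the top in both mice, and cluster 5 ranked 16th and 17th. Under 2% of UMIs were mitochondrial in 10.7% (7.66 to 14.5%) and 13.8% (10.9 to 17.1%) of cluster 1 cells but in 47.7% (41.6 to 53.7%) and 48.2% (42.1 to 54.3%) of cluster 5 cells. Transcripts of cytosolic ribosomal proteins took a median of 8.43% and 4.88% of UMIs in cluster 1, the lowest of all clusters, and 29.8% and 28.4% in cluster 5, the highest.

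Nuclear-retained long noncoding RNAs (a list of 14, led by Malat1 and Neat1) took a median of 6.82% and 6.46% of UMIs in cluster 1, the highest of all clusters, and 0.0314% and 0.680% in cluster 5, which ranked 18th and 17th. Genes that overlap ribosomal DNA repeats, counted here together with Lars2, took 16.7% and 14% in cluster 1 and 1.15% and 0.919% in cluster 5, against medians of 0.310 to 1.56% and 0.239 to 1.41% in the other clusters. A share above 5% was seen in 88.7% and 88.0% of cluster 1 cells and in 6.50% and 6.99% of cluster 5 cells. Cluster 1 was thus set apart from every other cluster by 3 of these shares, and cluster 5 by its ribosomal protein share.

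**Figure D1:**
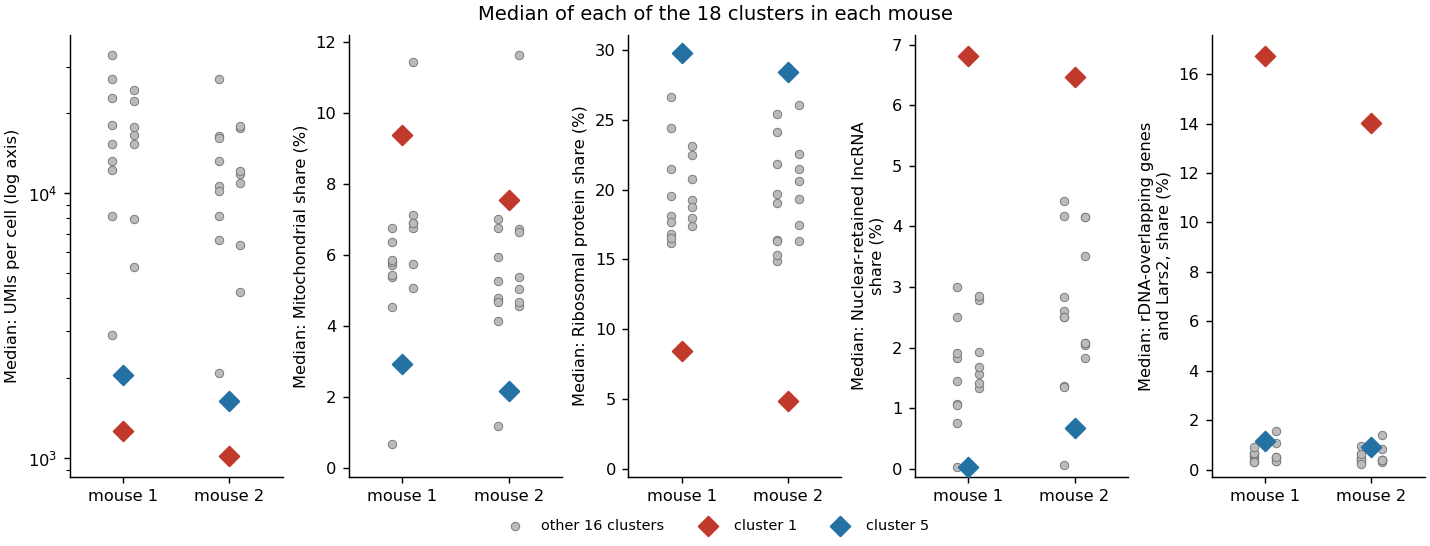
Each point is the median over the cells of 1 cluster in 1 mouse, for UMIs per cell (log axis) and for 4 shares of UMIs in percent, with cluster 1 in red, cluster 5 in blue and the other 16 clusters in grey. Cluster 1 is lowest in UMIs and in ribosomal protein share and highest in the nuclear-retained and rDNA-overlapping shares in both mice, and cluster 5 is highest in ribosomal protein share.

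The 2 clusters also differed among cells of like depth, and cluster 5 was not uniform. In cluster 5 cells of at least 1000 and under 2000 UMIs the median mitochondrial share was 0.342% and 1.33% and the ribosomal protein share 33.0% and 30.6%. Cluster 5 cells of 5000 UMIs or more (88 and 61 cells) stood at 5.83% and 4.87% mitochondrial and 24.7% and 27.1% ribosomal protein. Cluster 1 cells of at least 1000 and under 2000 UMIs stood at 10.1% and 7.90% mitochondrial and at 7.84% and 5.37% ribosomal protein. In cluster 1 the share of rDNA-overlapping genes and Lars2 was smaller in deeper cells, from 23.2% and 17.2% below 1000 UMIs to 4.95% and 3.50% at 5000 UMIs or more, and the ribosomal protein share was larger, from 4.99% and 3.89% to 18.7% and 15.5%. When equal numbers of cells were drawn from each cluster in bins of depth (189 and 218 of each), medians of 1209 and 1235.5 UMIs stood against 1203 and 1240.5. Median mitochondrial shares were then 8.44% and 7.84% in cluster 1 and 0.653% and 1.89% in cluster 5, and ribosomal protein shares 8.43% and 5.85% against 33.0% and 28.5%.

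**Figure D2:**
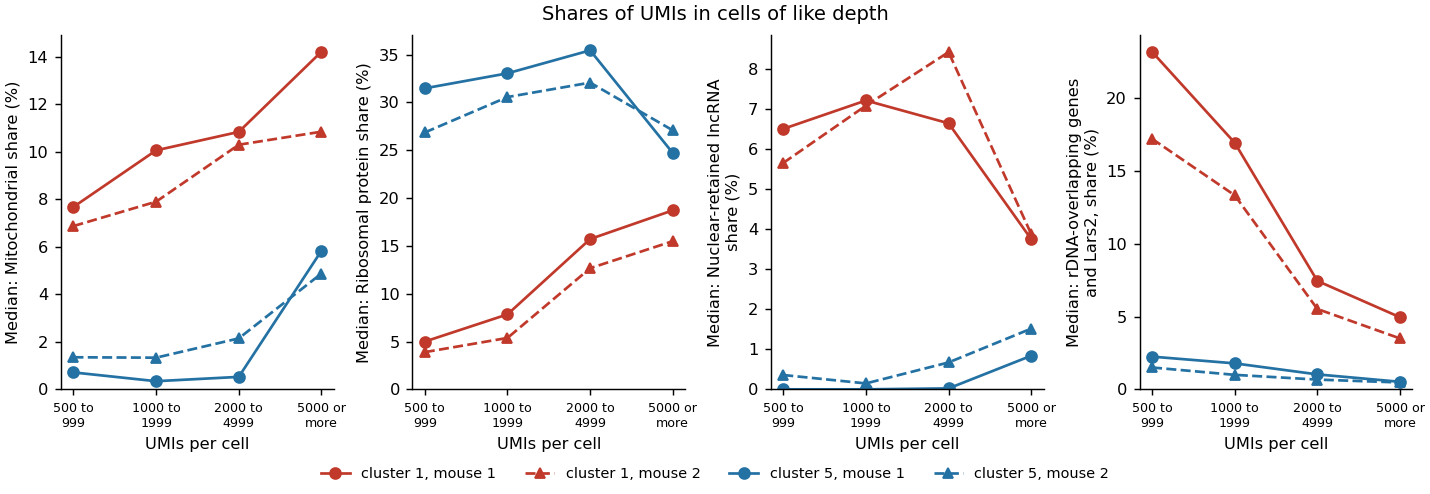
Median share of UMIs (percent) by depth of the cell for cluster 1 (red) and cluster 5 (blue), with mouse 1 as circles and solid lines and mouse 2 as triangles and dashed lines. In every bin of depth cluster 1 lies above cluster 5 in mitochondrial, nuclear-retained and rDNA-overlapping shares and below it in ribosomal protein share.

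For a test, UMIs were added up by mouse and cluster. The sums came to 554290 and 728103 UMIs in cluster 1 of mouse 1 and mouse 2, against 1776693 and 1050188 in cluster 5. These 4 sums entered the quasi-likelihood test of edgeR with a term for the mouse. Every adjusted p is from this test, with Benjamini-Hochberg adjustment across the genes tested. Levels are TMM-normalized CPM (UMIs per 1000000 UMIs of the sum). Each level is written as cluster 1 against cluster 5, with mouse 1 before mouse 2 in either pair. Log2 fold changes are cluster 1 over cluster 5, with ± 1 standard error (SE). The clusters were drawn from the same counts, with both mice integrated, so genes that separate them can differ in both mice by construction. With 1 residual degree of freedom, the spread that an adjusted p rests on is estimated largely across genes. A small value thus need not mean that the 2 mice agree. S100a8 and Wfdc17 passed with opposite directions in the mice. An adjusted p takes the clusters as given and is no independent support for the difference or for the clusters. In summed cells fewer cells with a transcript and fewer transcripts per cell cannot be told apart. Of 8006 genes tested 4272 passed an adjusted p of 0.05, which is 53.4%, with 2129 (26.6%) higher and 2143 (26.8%) lower in cluster 1. Without cluster 1 of mouse 2, cluster 5 of mouse 1 or cluster 1 of mouse 1 the calls numbered 1569, 1695 and 2267, and without cluster 5 of mouse 2 3934. Counts of list members are to be read against the percentages over all genes. Because most of the UMIs of cluster 5 came from its deep cells, the test was repeated on cells under 3000 UMIs, an alternative chosen after seeing the data. It called 2605 of 4331 genes, of which 2385 were also called with all cells, 2 of these with the opposite sign.

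The summed UMIs of cluster 5 resembled those of the rest of the tumor more than those of cluster 1 did. Across genes of at least 50 CPM in the other 16 clusters (2819 and 2875 genes), the log2 levels of cluster 5 had a Pearson r of 0.970 and 0.964 with those of the other clusters, and those of cluster 1 had an r of 0.777 and 0.772. Clusters 1 and 5 had an r of 0.730 and 0.726 with each other. These values are across genes, which are not independent replicates, and cluster 1 had the smallest sums. Cells of 5000 UMIs or more held 82.3% and 68.4% of the UMIs of cluster 5, so its r describes mostly those cells. The likeness of its shallow cells was not measured apart.

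Among abundant transcripts the largest rise was that of Gm26917, a long noncoding gene of the rDNA-overlapping list (GRCm38, chr17:39843013-39846341, GENCODE vM21). It stood at 61379 and 40741 against 148 and 1589 CPM (log2 fold change 6.65 ± 0.66, adjusted p = 3.7e-13). In mouse 2 cluster 5 held 1583 of its UMIs and in mouse 1 236, so the cluster 5 level differed widely between the mice, and cluster 1 was higher in both. After thinning to 500 UMIs it had a UMI in 95.4% and 95% of cluster 1 cells and in 4.33% and 7.72% of cluster 5 cells, and without thinning in 98.3% and 98.4% against 17.0% and 22.1%. Gm42418 (chr17:39846958-39848788) stood at 77963 and 66916 against 7821 and 8658 CPM (log2 fold change 3.13 ± 0.50, adjusted p = 3.0e-07). AY036118 lies inside Gm42418 on the opposite strand and stood at 3489 and 2375 against 692 and 645 CPM (log2 fold change 2.11 ± 0.31, adjusted p = 3.0e-08). All 3 rDNA-overlapping genes were higher in cluster 1. Reads of Gm42418 and AY036118, and reads of ribosomal RNA that match them, could not be told apart here, since the strand setting of the counting was not given in the sources used here.

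Lars2, which encodes the mitochondrial leucyl-tRNA synthetase (chr9:123366927-123462666), stood at 10082 and 9828 against 228 and 301 CPM (log2 fold change 5.25 ± 0.41, adjusted p = 3.5e-17). Its level in the other 16 clusters was 162 and 188 CPM, so cluster 1 was the one that stood apart. At 500 UMIs it had a UMI in 91.6% and 92.8% of cluster 1 cells and in 16.2% and 13.2% of cluster 5 cells. Lars2 was counted with the rDNA-overlapping genes in the shares above. Whether its UMIs come from the synthetase message or from ribosomal RNA reads was not tested. When the rDNA-overlapping genes and Lars2 were left out of totals and test, an alternative chosen after seeing the data, 4383 of 8175 genes passed.

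**Figure D3:**
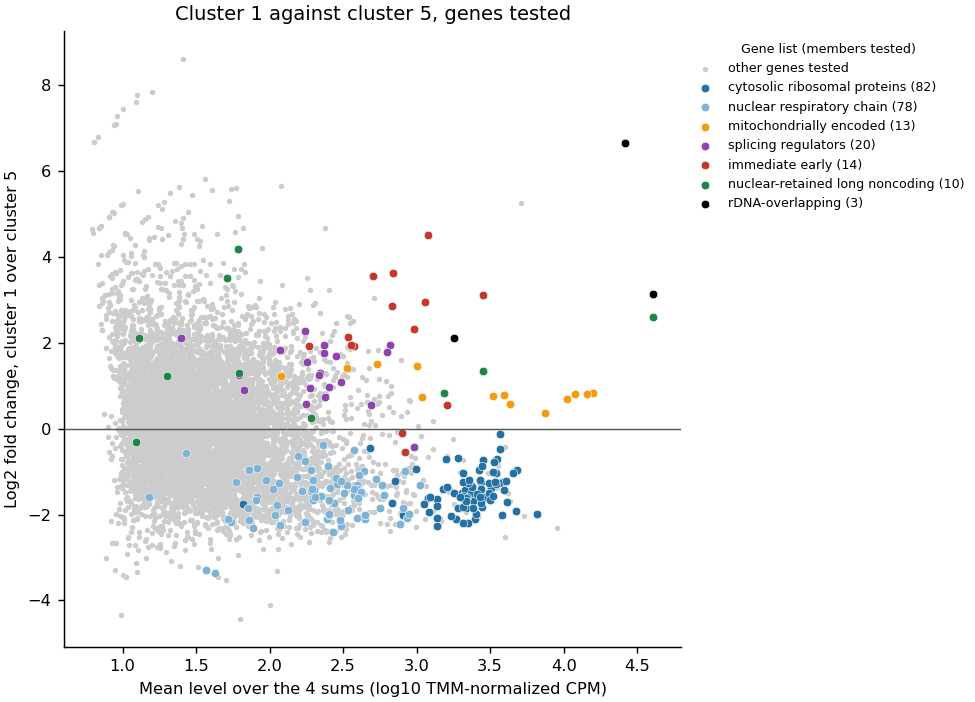
Log2 fold change of cluster 1 over cluster 5 against the mean level of each tested gene (log10 CPM over the 4 sums), with members of 7 gene lists in colour. The rDNA-overlapping genes (black), Malat1 (the green point at the right) and most of the immediate early genes (red) lie high, and the ribosomal protein and nuclear respiratory chain genes (blue and light blue) lie below 0.

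Long noncoding RNAs found mostly in the nucleus rose as a group: of 14 members 10 were tested, 8 of them passed, all higher in cluster 1, and the median log2 fold change was 1.32 against 0.01 over all genes tested. Over all 189 long noncoding genes tested the median was 2.08 and 66.1% were higher. By the median the list thus rose no more than long noncoding genes at large. Malat1, an abundant RNA of nuclear speckles (chr19:5795690-5802672), stood at 74339 and 64464 against 8899 and 14721 CPM (log2 fold change 2.60 ± 0.50, adjusted p = 1.1e-05). Neat1, the scaffold of paraspeckles (chr19:5824708-5845478), stood at 4125 and 3942 against 1405 and 1781 CPM (log2 fold change 1.35 ± 0.32, adjusted p = 2.7e-04). Malat1 had a UMI in 99.1% and 96.0% of thinned cluster 1 cells against 36.1% and 64.3% in cluster 5, and Neat1 in 58.3% and 56.3% against 14.8% and 29.0%. In cluster 5 the level of Malat1 depended on depth, at 2483 and 8098 CPM (totals only, without TMM) in cells under 3000 UMIs and 8681 and 15509 CPM in deeper cells, and Neat1 was at 82.2 and 615 against 1408 and 1973 CPM. The shallow cells of cluster 5 thus held less of both RNAs than its deep cells, while in cluster 1 the shallow cells held 77602 and 79918 CPM of Malat1 and the deeper cells 58184 and 47351 CPM.

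Dleu2, host of the miR-15a and miR-16-1 genes, stood at 114 and 119 against 5.63 and 7.03 CPM (log2 fold change 4.19 ± 0.37, adjusted p = 4.6e-15). Firre, an X-linked RNA that shapes nuclear structure, stood at 80.2 and 106 against 3.76 and 14.1 CPM (log2 fold change 3.50 ± 0.38, adjusted p = 5.5e-12). Tug1 (103 and 73.8 against 33.2 and 38.2 CPM), Airn (29.8 and 26.3 against 10 and 14.1) and Ftx (18.6 and 22.5 against 0.626 and 10) were also higher, with log2 fold changes of 1.30 ± 0.30, 1.23 ± 0.44 and 2.12 ± 0.59 and adjusted p of 2.3e-04, 0.015 and 0.002. Xist, which coats the inactive X chromosome, stood at 1327 and 2394 against 531 and 1876 CPM (log2 fold change 0.83 ± 0.30, adjusted p = 0.015), so cluster 5 of mouse 2 lay above cluster 1 of mouse 1. Kcnq1ot1 (233 and 185 against 175 and 175 CPM, log2 fold change 0.25 ± 0.25, adjusted p = 0.42) and Pvt1 (14.9 and 7.5 against 16.3 and 11 CPM, log2 fold change -0.30 ± 0.53, adjusted p = 0.65) did not pass. Without cluster 5 of mouse 1 only 2 members of the list passed, without cluster 1 of mouse 1 only 4, and without cluster 1 of mouse 2 only 5. The direction of Xist turned without cluster 5 of mouse 1, to a log2 fold change of -0.07.

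Splicing regulators, among them nuclear speckle proteins and the kinases that phosphorylate them, were mostly higher in cluster 1: 18 of 20 passed and none was lower, with a median log2 fold change of 1.27. The kinase Clk1 stood at 306 and 273 against 51.3 and 69.3 CPM (log2 fold change 2.28 ± 0.27, adjusted p = 9.6e-11), and Clk2 at 33.6 and 47.5 against 6.89 and 12 CPM (log2 fold change 2.10 ± 0.42, adjusted p = 2.2e-05). Tra2a, a splicing activator, stood at 339 and 406 against 83.9 and 109 CPM (log2 fold change 1.95 ± 0.26, adjusted p = 3.9e-09). Son, a large speckle protein, stood at 1179.9 and 900.4 against 250.4 and 289 CPM (log2 fold change 1.94 ± 0.28, adjusted p = 2.1e-08). In these 4 genes both cluster 1 values lay above both cluster 5 values. Without cluster 5 of mouse 1, 7 members passed, and without cluster 1 of mouse 2, 11.

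Immediate early genes had a median log2 fold change of 2.22, and 11 of the 14 members were higher and none lower. Fos, a subunit of the AP-1 transcription factor, stood at 2233 and 2326 against 68.9 and 143 CPM (log2 fold change 4.51 ± 0.33, adjusted p = 1.8e-18). Fosb, its relative, stood at 1338 and 1209 against 73.9 and 145 CPM (log2 fold change 3.61 ± 0.31, adjusted p = 5.8e-16). Jun, the partner of both in AP-1, stood at 5402 and 4716 against 529 and 637 CPM (log2 fold change 3.12 ± 0.34, adjusted p = 9.4e-12). Egr1, a zinc finger factor of the same early wave, stood at 861 and 1009 against 65.1 and 95.4 CPM (log2 fold change 3.56 ± 0.29, adjusted p = 2.0e-16). In all 4 the levels of cluster 1 differed little between the mice and lay above both cluster 5 values, and 11 or 12 members passed in every alternative tried. The other 16 clusters held 225 and 433 CPM of Fos and 765 and 851 CPM of Jun, and by the summed level of the list cluster 1 ranked 2nd of the 18 clusters in both mice while cluster 5 ranked 15th and 13th. Fos had a UMI in 41.4% and 54.7% of thinned cluster 1 cells and in 2.53% and 8.09% of cluster 5 cells, and without thinning in 58.6% and 70.5% against 11.9% and 16.5%. Jun had one in 71.0% and 75.2% against 11.9% and 22.4%. Junb, Atf3, Ier2, Zfp36, Dusp1, Btg2 and Klf4 were the other members that rose, and Jund, Ier3 and Klf6 were those that did not pass.

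Since these genes moved together, the promoters of 4 of them that rose (RefSeq, GRCm38.p6, the 250 bases before the annotated start, 5′ to 3′ on the gene's strand) are given. Capitals mark TGACG on either strand, the core of the sites bound by CREB and ATF factors. They also mark the TATA box sequence TATAAA.
Fos (chr12:85473640-85473889, plus strand): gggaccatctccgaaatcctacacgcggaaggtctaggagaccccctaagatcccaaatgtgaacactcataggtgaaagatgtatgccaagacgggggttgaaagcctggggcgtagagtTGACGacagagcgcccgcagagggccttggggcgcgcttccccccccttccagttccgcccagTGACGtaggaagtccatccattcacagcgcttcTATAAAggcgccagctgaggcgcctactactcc
Fosb (chr7:19310046-19310295, minus strand): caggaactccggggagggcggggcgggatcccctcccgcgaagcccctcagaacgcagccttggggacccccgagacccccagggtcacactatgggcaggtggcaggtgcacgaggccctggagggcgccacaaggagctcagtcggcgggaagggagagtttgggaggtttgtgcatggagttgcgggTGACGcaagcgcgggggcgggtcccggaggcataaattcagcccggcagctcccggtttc
Jun (chr4:95052223-95052472, minus strand): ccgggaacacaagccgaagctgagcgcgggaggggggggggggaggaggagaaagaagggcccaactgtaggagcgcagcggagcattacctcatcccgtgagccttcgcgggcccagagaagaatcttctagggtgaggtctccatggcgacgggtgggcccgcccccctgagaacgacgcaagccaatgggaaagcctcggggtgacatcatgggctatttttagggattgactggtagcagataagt
Junb (chr8:84978749-84978998, minus strand): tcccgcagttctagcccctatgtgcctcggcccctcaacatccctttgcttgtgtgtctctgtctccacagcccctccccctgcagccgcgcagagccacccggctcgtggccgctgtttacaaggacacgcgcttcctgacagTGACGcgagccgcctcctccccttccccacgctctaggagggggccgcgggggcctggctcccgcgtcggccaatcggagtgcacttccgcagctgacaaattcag
TGACG was found in 7 of the 12 tested list members with a promoter in the table (58.3%), in 1931 of the 6377 tested genes with one (30.3%) and in 17.9% of all 27025 promoters. It was found in 30.7% of the promoters of genes higher in cluster 1 and in 29.8% of those lower, so the 2 directions did not stand apart by this motif. TATAAA was found in 6.11% and 6.45% of them, in 5.86% of the tested genes with a promoter and in 13% of all promoters. The Jun window holds neither run of letters. A match is a description of letters, not of a bound site.

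Mitochondrially encoded genes, which make the 13 proteins of the mitochondrial genome, were all fitted higher in cluster 1, with a median log2 fold change of 0.81, but 7 of 13 passed. The largest changes were of the complex I subunits mt-Nd4l and mt-Nd5 and the ATP synthase subunit mt-Atp8. mt-Nd4l stood at 688 and 889 against 222 and 336 CPM (log2 fold change 1.51 ± 0.27, adjusted p = 2.3e-06). mt-Nd5 stood at 1553 and 1388 against 526 and 539 CPM (log2 fold change 1.46 ± 0.28, adjusted p = 1.0e-05). mt-Atp8 stood at 473 and 496 against 145 and 229.9 CPM (log2 fold change 1.41 ± 0.26, adjusted p = 6.6e-06). In each of the 3, both mice were higher in cluster 1 by more than the mice differed. mt-Nd6 (1.24 ± 0.26), mt-Nd3 (0.74 ± 0.28), mt-Nd2 (0.76 ± 0.32) and mt-Nd4 (0.78 ± 0.33) also passed, with adjusted p of 6.4e-05, 0.021, 0.04 and 0.04. The abundant subunits of cytochrome oxidase and ATP synthase missed the threshold. mt-Co1 stood at 17037 and 13336 against 9493 and 7830.0 CPM (log2 fold change 0.81 ± 0.39, adjusted p = 0.072). For mt-Co2, mt-Co3, mt-Atp6, mt-Cytb and mt-Nd1 the log2 fold changes were 0.70 ± 0.38, 0.82 ± 0.40, 0.83 ± 0.40, 0.38 ± 0.36 and 0.57 ± 0.33, with adjusted p of 0.11, 0.077, 0.076, 0.39 and 0.14.

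The count on this list was larger in cells of lower or like depth. On cells under 3000 UMIs, and on cells thinned to 500 UMIs, all 13 passed, and on cells matched by depth 12 did. In cluster 5 mt-Cytb stood at 3475 and 3527 CPM (totals only) in cells under 3000 UMIs and at 7315 and 5583 CPM in deeper cells. Without cluster 5 of mouse 1 no member passed, without cluster 5 of mouse 2 or cluster 1 of mouse 1 4 did, and without cluster 1 of mouse 2 8 did.

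Nuclear genes for the machinery that these mitochondrial genes belong to went the other way. Of 78 tested nuclear-encoded subunits of respiratory complexes I to V, 75 were lower in cluster 1 and none higher, with a median log2 fold change of -1.55. Ndufa9, a complex I subunit, stood at 7.46 and 7.5 against 73.2 and 81.3 CPM (log2 fold change -3.36 ± 0.42, adjusted p = 5.5e-10). Sdhd, a membrane anchor of complex II, stood at 7.46 and 6.25 against 65.7 and 68.3 CPM (log2 fold change -3.29 ± 0.44, adjusted p = 2.9e-09). Uqcrc2 of complex III stood at 29.8 and 22.5 against 121 and 137 CPM (log2 fold change -2.32 ± 0.32, adjusted p = 7.6e-09). Cox5a of complex IV stood at 91.3 and 81.3 against 485 and 429 CPM (log2 fold change -2.40 ± 0.28, adjusted p = 5.6e-11). Cluster 1 held only 4 and 6 UMIs of Ndufa9 and 4 and 5 of Sdhd, against 117 and 81 and 105 and 68 in cluster 5. Proteins of the mitochondrial ribosome were lower in 59 of 74 tested members, and none was higher, but 18, 32 and 40 passed without cluster 1 of mouse 2, cluster 5 of mouse 1 and cluster 1 of mouse 1. Of these, Mrps18b (22.4 and 11.3 against 116 and 60.2 CPM), Mrpl34 (18.6 and 22.5 against 95.8 and 92.4), Mrpl27 (14.9 and 20 against 89.5 and 67.3) and Mrpl20 (35.4 and 46.3 against 207 and 153) had log2 fold changes of -2.39 ± 0.36, -2.17 ± 0.34, -2.11 ± 0.36 and -2.09 ± 0.29 and adjusted p of 8.0e-08, 1.8e-07, 1.1e-06 and 1.4e-08. In mouse 1 and in mouse 2 the nuclear-encoded and the mitochondrially encoded genes of oxidative phosphorylation thus differed in opposite directions between the clusters.

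Cytosolic ribosomal proteins were lower in cluster 1 in 77 of 82 tested members, none was higher, and the log2 fold changes ran from -2.27 to -0.13 with a median of -1.51. Rpl10, a protein of the large subunit, stood at 529 and 420.2 against 2230.2 and 2312 CPM (log2 fold change -2.27 ± 0.30, adjusted p = 2.7e-09). Rps4x, of the small subunit, stood at 815 and 677 against 3274 and 3563 CPM (log2 fold change -2.20 ± 0.32, adjusted p = 2.1e-08). Rpl15 and Rpl7 fell by 2.19 and 2.10 on the log2 scale (SE 0.32 and 0.31, adjusted p = 3.2e-08 and 4.2e-08). In all 4 genes both cluster 1 values lay below both cluster 5 values. Rpl10 had a UMI in 15.4% and 10.8% of thinned cluster 1 cells and in 63.2% and 67.3% of cluster 5 cells, and without thinning in 35.7% and 28.1% against 91.7% and 87.5%. In cluster 5 its level was higher in the shallow cells, 2724 and 2397 CPM (totals only) under 3000 UMIs against 1917 and 2139 in deeper cells, and in cluster 1 lower, 338 and 307 against 936 and 858. All 82 members passed on cells under 3000 UMIs, and 47 passed without cluster 5 of mouse 1.

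**Figure D4:**
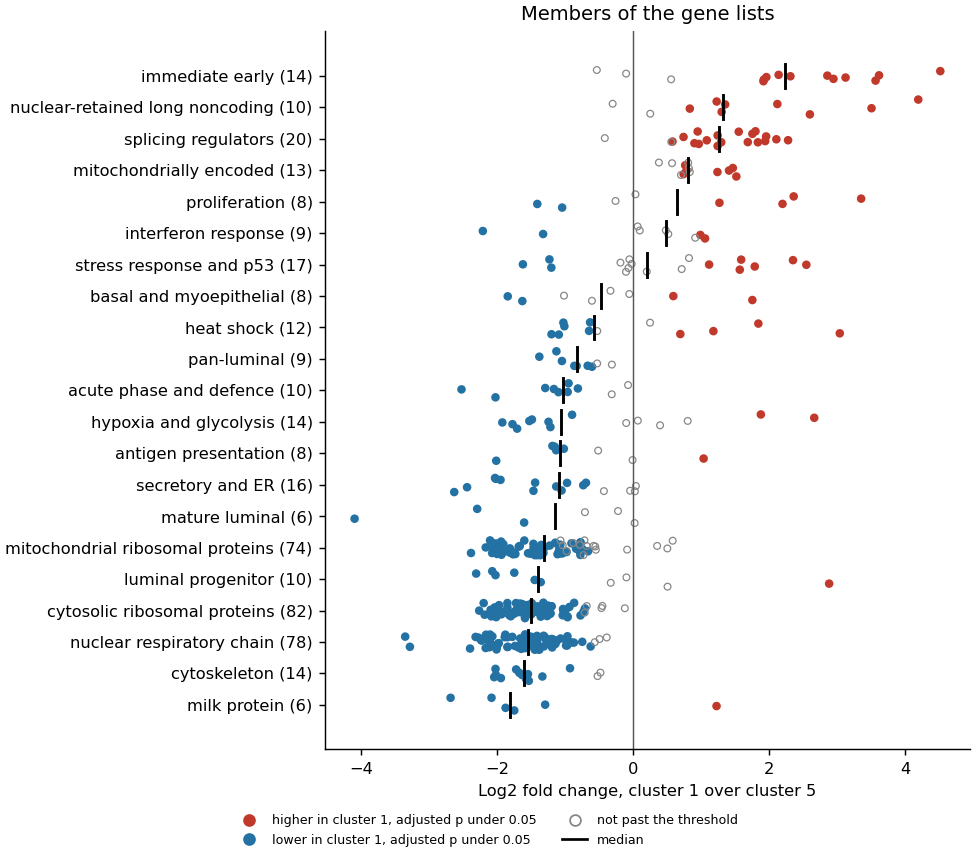
Log2 fold change of cluster 1 over cluster 5 for the members of each gene list with at least 5 genes tested (number in brackets), red where higher and blue where lower at an adjusted p under 0.05, open where not past the threshold, with a bar at the median. Lists of nuclear and early-induced transcripts lie to the right, with medians of 1.27 to 2.22, and lists of ribosomal, respiratory and cytoskeletal proteins lie to the left, with medians of -1.31 to -1.61, as do the 6 milk protein genes.

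Other abundant cytoplasmic messages were lower in cluster 1 as well. Of 14 cytoskeleton genes 12 were lower. Tmsb4x, which binds actin monomers, stood at 1077 and 959 against 3860.1 and 4574 CPM (log2 fold change -2.05 ± 0.32, adjusted p = 2.3e-07). Actb, cytoplasmic actin, stood at 1523 and 1548 against 6239.9 and 6239 CPM (log2 fold change -2.02 ± 0.34, adjusted p = 9.7e-07). Tuba1a (log2 fold change -2.03 ± 0.30, adjusted p = 4.6e-08) and Cfl1 (log2 fold change -1.95 ± 0.27, adjusted p = 1.5e-08) were lower too. Of 16 genes of secretion and the endoplasmic reticulum 12 were lower and none higher. The signal peptidase subunit Spcs1 stood at 69 and 58.8 against 630.3 and 249 CPM (log2 fold change -2.64 ± 0.30, adjusted p = 2.0e-11). Its partner Spcs2 (log2 fold change -2.03 ± 0.28, adjusted p = 1.1e-08), the translocon subunit Sec61b (log2 fold change -2.02 ± 0.27, adjusted p = 4.5e-09) and Ssr2 (log2 fold change -2.45 ± 0.29, adjusted p = 7.9e-11) fell with it. Of 14 glycolysis and hypoxia genes 8 were lower, among them Pgk1 (log2 fold change -1.93 ± 0.28, adjusted p = 2.6e-08) and Eno1 (log2 fold change -1.78 ± 0.27, adjusted p = 8.6e-08). The growth factor Vegfa was higher, at 293 and 353 against 73.9 and 103 CPM (log2 fold change 1.88 ± 0.26, adjusted p = 1.1e-08). So was hexokinase Hk2, at 181 and 135 against 21.3 and 29.1 CPM (log2 fold change 2.66 ± 0.30, adjusted p = 2.1e-11). In both of these the cluster 1 values lay above all cluster 5 values, while Pgk1 and Eno1, enzymes of later steps of glycolysis, were lower.

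Genes of luminal identity were lower in cluster 1, with exceptions. Of 9 pan-luminal genes 7 were lower and none higher. Krt8 stood at 2436 and 2199.8 against 4398 and 5228 CPM (log2 fold change -1.05 ± 0.33, adjusted p = 0.0055), and its partner Krt18 at 2891 and 2217 against 4289.5 and 4982 CPM (log2 fold change -0.87 ± 0.33, adjusted p = 0.022). Epcam, an epithelial adhesion protein, stood at 2168 and 1706 against 6199.9 and 4059 CPM (log2 fold change -1.38 ± 0.33, adjusted p = 3.1e-04). Krt19 had a log2 fold change of -1.13 ± 0.27 (adjusted p = 3.6e-04). On cells under 3000 UMIs 2 of the list passed, and Epcam then stood at 1937 and 1725 CPM (totals only) in cluster 1 and 1892 and 2753 CPM in cluster 5, against 6028 and 4138 CPM in the deeper cells of cluster 5. Without cluster 5 of mouse 1, cluster 1 of mouse 2 or cluster 5 of mouse 2, 1, 2 and 3 members of the list passed. Luminal progenitor genes, which mark precursors of milk-producing cells, were lower in 6 of 10. Wfdc18 stood at 3374 and 2465 against 19769.5 and 10380.4 CPM (log2 fold change -2.31 ± 0.39, adjusted p = 9.9e-07). Trf, which encodes transferrin, stood at 505 and 545 against 3067 and 1605 CPM (log2 fold change -2.08 ± 0.31, adjusted p = 4.9e-08). Lcn2, a siderophore-binding protein, stood at 2194 and 2013 against 9712 and 7569.9 CPM (log2 fold change -2.03 ± 0.36, adjusted p = 2.4e-06). Kit, the receptor by which these progenitors are often sorted, was the member that rose, at 298 and 389 against 28.2 and 72.3 CPM (log2 fold change 2.88 ± 0.28, adjusted p = 1.8e-13).

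Of 12 mature luminal genes 6 were tested and 3 were lower. Ly6a, the Sca-1 surface protein, stood at 18.6 and 2.5 against 351 and 31.1 CPM (log2 fold change -4.10 ± 0.41, adjusted p = 3.7e-13). Esr1, the estrogen receptor, stood at 26.1 and 15 against 100.2 and 96.4 CPM (log2 fold change -2.30 ± 0.34, adjusted p = 6.1e-08). Areg, an EGF receptor ligand, stood at 121 and 45 against 190.3 and 288 CPM (log2 fold change -1.61 ± 0.30, adjusted p = 6.1e-06). The Ly6a level of cluster 5 differed widely between the mice, but it lay above that of cluster 1 in both. Milk protein genes were lower in 5 of 6 tested. Wap, whey acidic protein, stood at 14.9 and 1.25 against 100.2 and 7.03 CPM (log2 fold change -2.69 ± 0.49, adjusted p = 4.7e-06). The caseins Csn1s1 and Csn3 stood at 20.5 and 0 against 50.7 and 23.1 CPM (log2 fold change -2.09 ± 0.50, adjusted p = 3.0e-04) and 518 and 1156 against 1879 and 3625 CPM (log2 fold change -1.75 ± 0.30, adjusted p = 1.6e-06). Lalba, alpha-lactalbumin, stood at 31.7 and 43.8 against 70.1 and 225 CPM (log2 fold change -1.88 ± 0.31, adjusted p = 6.4e-07). Xdh, the other tested member, rose. In Wap and Csn1s1 the UMIs of cluster 1 numbered 8 and 1 and 11 and 0.

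Basal and myoepithelial genes went both ways, 2 higher and 2 lower of 8 tested. That is near the shares over all genes tested, 26.6% higher and 26.8% lower. Acta2, smooth muscle actin, stood at 16.8 and 0 against 53.8 and 4.02 CPM (log2 fold change -1.85 ± 0.55, adjusted p = 0.0033). Lgals7, a galectin of stratified epithelium, stood at 265 and 291 against 639.7 and 1148 CPM (log2 fold change -1.63 ± 0.28, adjusted p = 1.1e-06). The hemidesmosome integrin Itgb4 was higher, at 104 and 52.5 against 14.4 and 33.1 CPM (log2 fold change 1.75 ± 0.35, adjusted p = 2.1e-05). So was the transcription factor Sox10, at 153 and 209 against 126 and 112 CPM (log2 fold change 0.59 ± 0.26, adjusted p = 0.048). The Sox10 difference sat at the threshold when all cells were used. It passed, with a larger rise, on cells matched by depth (log2 fold change 1.17, adjusted p = 0.011) and thinned to 500 UMIs (1.52, 8.4e-04). On cells under 3000 UMIs it passed too (1.32, 0.0095), as it did with library totals and without cells of other types. It did not pass in any fit that left out a sum, by DESeq2, against a fold of 1.5, without the mouse block, with no filter, on cells of at least 1000 UMIs, or without the mitochondrially encoded or the rDNA-overlapping genes. Its adjusted p in these ran from 0.0506 to 0.426. Of the 3 mesenchymal genes tested 1 was lower, Vim (26.1 and 11.3 against 124 and 17.1 CPM, log2 fold change -1.69 ± 0.39, adjusted p = 2.0e-04). The deposited score of the basal signature had a mean of 0.307 and 0.430 in cluster 1 and of 0.213 and 0.159 in cluster 5. For the mature luminal signature the means were 0.350 and 0.445 against 0.136 and 0.186. For the luminal progenitor signature they were 0.274 and 0.326 against 0.219 and 0.262. All 3 scores, which run from 0 to 1, were therefore higher in cluster 1 on average. The scores use published signatures and the gene lists were chosen here, so the 2 need not hold the same genes. In the luminal progenitor, mature luminal and basal lists the summed CPM was lower in cluster 1. For the basal list it was 741 and 878 CPM (totals only) against 1024 and 1525 CPM. A score above 0.5 for luminal progenitor and basal signatures together was found in 7.54% (4.98 to 10.8%) and 15.2% (12.1 to 18.6%) of cluster 1 cells and in 2.89% (1.25 to 5.61%) and 4.78% (2.57 to 8.03%) of cluster 5 cells. The scores were made from the same counts and no test of them was made.

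Stress, cycle and immune genes went both ways, as did all genes tested, of which 26.6% were higher and 26.8% lower. Of 12 heat shock genes 4 were higher and 6 lower. The inducible Hsp70 gene Hspa1a stood at 1096 and 733 against 121 and 99.4 CPM (log2 fold change 3.04 ± 0.28, adjusted p = 3.2e-14). Its copy Hspa1b stood at 971 and 709 against 323 and 165 CPM (log2 fold change 1.84 ± 0.27, adjusted p = 4.9e-08). The co-chaperone Dnajb1 rose by 1.18 ± 0.27 (adjusted p = 1.4e-04). Hspe1, a mitochondrial chaperonin, fell by 1.20 on the log2 scale (SE 0.26, adjusted p = 8.8e-05). Hspa1a and Hspa1b are near-identical copies, and how reads were split between them is uncertain. Of 17 stress and p53 response genes 6 were higher and 3 lower. Ddit4, an mTORC1 inhibitor, stood at 240.5 and 254 against 23.8 and 69.3 CPM (log2 fold change 2.54 ± 0.29, adjusted p = 2.5e-11). Sesn2 (log2 fold change 2.35 ± 0.45, adjusted p = 1.3e-05) and Gadd45b (log2 fold change 1.79 ± 0.26, adjusted p = 5.1e-08) rose too. The apoptosis effector Bax was lower, at 80.2 and 66.3 against 214 and 235 CPM (log2 fold change -1.62 ± 0.27, adjusted p = 8.0e-07).

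Of 8 proliferation genes tested 4 were higher and 2 lower, against 26.6% higher and 26.8% lower over all genes tested. Mki67 stood at 112 and 87.5 against 2.5 and 20.1 CPM (log2 fold change 3.35 ± 0.39, adjusted p = 7.8e-11). Top2a, the mitotic topoisomerase, stood at 31.7 and 25 against 5.01 and 6.02 CPM (log2 fold change 2.36 ± 0.50, adjusted p = 6.7e-05). Mcm6, a replication helicase subunit, was lower, at 3.73 and 11.3 against 15.6 and 25.1 CPM (log2 fold change -1.41 ± 0.53, adjusted p = 0.02). Rrm2, a ribonucleotide reductase subunit, had 8 and 10 UMIs against 2 and 5 (log2 fold change 2.19 ± 0.71, adjusted p = 0.0075). The list's summed level in cluster 1, 363 and 400 CPM (totals only), lay within the range of the other clusters, 125 to 3634 and 120 to 3776. Of 8 antigen presentation genes 5 were lower, among them Psmb8 (log2 fold change -2.02 ± 0.29, adjusted p = 2.2e-08), H2-D1 (log2 fold change -1.19 ± 0.29, adjusted p = 4.6e-04), Tapbp (log2 fold change -1.16 ± 0.31, adjusted p = 0.0012) and Psmb9 (log2 fold change -1.14 ± 0.38, adjusted p = 0.0094), and 1 was higher. Of 9 interferon response genes 2 were lower, Bst2 (log2 fold change -2.21 ± 0.28, adjusted p = 8.7e-10) and Ifitm3 (log2 fold change -1.33 ± 0.30, adjusted p = 1.3e-04). Those higher were Ifi27l2a (log2 fold change 0.99 ± 0.31, adjusted p = 0.0056) and Oasl2 (log2 fold change 1.05 ± 0.42, adjusted p = 0.028). With 2 lower and 2 higher of 9, the interferon list lay near the shares over all genes tested. No member of the list was higher by DESeq2, without the mouse block, on matched cells or on cells under 3000 UMIs. The direction of Ifi27l2a turned on cells under 3000 UMIs, to a log2 fold change of -1.11. Of 10 acute phase and defence genes 8 were lower and none higher, and Slpi, a secreted antiprotease, changed most (50.3 and 30 against 468 and 95.4 CPM, log2 fold change -2.53 ± 0.32, adjusted p = 5.4e-10). Saa2, an acute phase protein, stood at 18.6 and 31.3 against 43.8 and 79.3 CPM (log2 fold change -1.30 ± 0.34, adjusted p = 0.0011). Wfdc17 stood at 24.2 and 8.75 against 83.2 and 6.02 CPM (log2 fold change -1.17 ± 0.44, adjusted p = 0.02). It was lower in cluster 1 of mouse 1 only and whose direction turned without cluster 5 of mouse 1, to a log2 fold change of 1.29.

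Most of the largest rises of single genes, chosen by size among those that passed and moved alike in both mice, were of genes at a few CPM in cluster 5. Rasd1, a small GTPase induced by glucocorticoid, stood at 171 and 295 against 1.25 and 9.04 CPM (log2 fold change 5.66 ± 0.38, adjusted p = 1.6e-20). Dll1, a Notch ligand, stood at 67.1 and 146 against 1.25 and 3.01 CPM (log2 fold change 5.57 ± 0.46, adjusted p = 2.1e-16). The POU factor gene Pou3f1 stood at 70.8 and 136 against 2.5 and 2.01 CPM (log2 fold change 5.31 ± 0.45, adjusted p = 5.5e-16). The histone genes Hist4h4, Hist1h3a and Hist2h2bb had log2 fold changes of 4.95 ± 0.41, 5.44 ± 0.56 and 5.82 ± 0.55 and adjusted p of 2.1e-16, 1.3e-12 and 3.9e-14. AW011738 (log2 fold change 5.59 ± 0.44, adjusted p = 4.5e-17), 2810454H06Rik (log2 fold change 5.55 ± 0.50, adjusted p = 6.1e-15) and 1110035H17Rik (log2 fold change 5.04 ± 0.54, adjusted p = 6.2e-12) were at 53.8 to 120.1 CPM in cluster 1 and at 1.00 to 3.13 CPM in cluster 5. The last 2 overlap Gpr19 and Fam98c on the opposite strand, so their reads are uncertain. 4833445I07Rik, a long noncoding gene that holds Mir191 and Mir425, had 22 and 50 UMIs in cluster 1 and 0 in both cluster 5 sums, and was at least 22.3-fold and 21.2-fold higher against a floor of 3 UMIs per sum.

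Among the largest falls, Car6, a secreted carbonic anhydrase, stood at 13 and 0 against 88.3 and 149.6 CPM (log2 fold change -4.43 ± 0.48, adjusted p = 5.5e-12). Folr1, a folate receptor, stood at 42.9 and 17.5 against 195 and 203 CPM (log2 fold change -2.81 ± 0.32, adjusted p = 2.3e-11), and S100a14 at 20.5 and 8.75 against 113 and 102 CPM (log2 fold change -2.95 ± 0.37, adjusted p = 4.2e-10). Tmem14c, a mitochondrial membrane protein, stood at 20.5 and 23.8 against 168 and 146 CPM (log2 fold change -2.80 ± 0.32, adjusted p = 4.1e-11). Phgdh, the first enzyme of serine synthesis, stood at 11.2 and 7.5 against 111 and 49.2 CPM (log2 fold change -3.02 ± 0.41, adjusted p = 4.7e-09). In these genes both cluster 5 values lay above both cluster 1 values. Rbp7 stood at 7.46 and 8.75 against 46.3 and 139.6 CPM (log2 fold change -3.53 ± 0.42, adjusted p = 1.7e-10). Smr3a, Scrg1 and Amtn were high in cluster 5 of mouse 1 (148, 100.8 and 135 CPM) and low in that of mouse 2 (15.1, 17.1 and 5.02 CPM), with log2 fold changes of -3.45 ± 0.47, -3.22 ± 0.49 and -2.81 ± 0.47 and adjusted p of 7.3e-09, 9.3e-08 and 9.3e-07. The direction of Amtn turned without cluster 5 of mouse 1, to 0.76 (adjusted p = 0.78).

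Gene structure went with the direction of the difference. Among protein-coding genes the median log2 fold change was -0.71 where the gene spans under 10 kb (1894 genes), -0.14 at 10 to 50 kb (3640) and 0.55 over 50 kb (2277). By the longest annotated transcript it was -1.32 under 1 kb, -0.75 at 1 to 3 kb and 0.47 at 3 kb or more, and 75% of the 388 genes under 1 kb were lower in cluster 1 and 8.51% higher. By exons the course was not even: the 158 single-exon genes had a median of 1.33, with 61.4% higher and 8.23% lower, those of 2 or 3 exons -0.48, those of 4 to 10 exons -0.64, and those of over 10 exons 0.51. Of 189 long noncoding genes tested 66.1% were higher and 12.2% lower, with a median of 2.08. These are descriptions across genes, which are not independent, and expression level was not held equal between the bins.

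**Figure D5:**
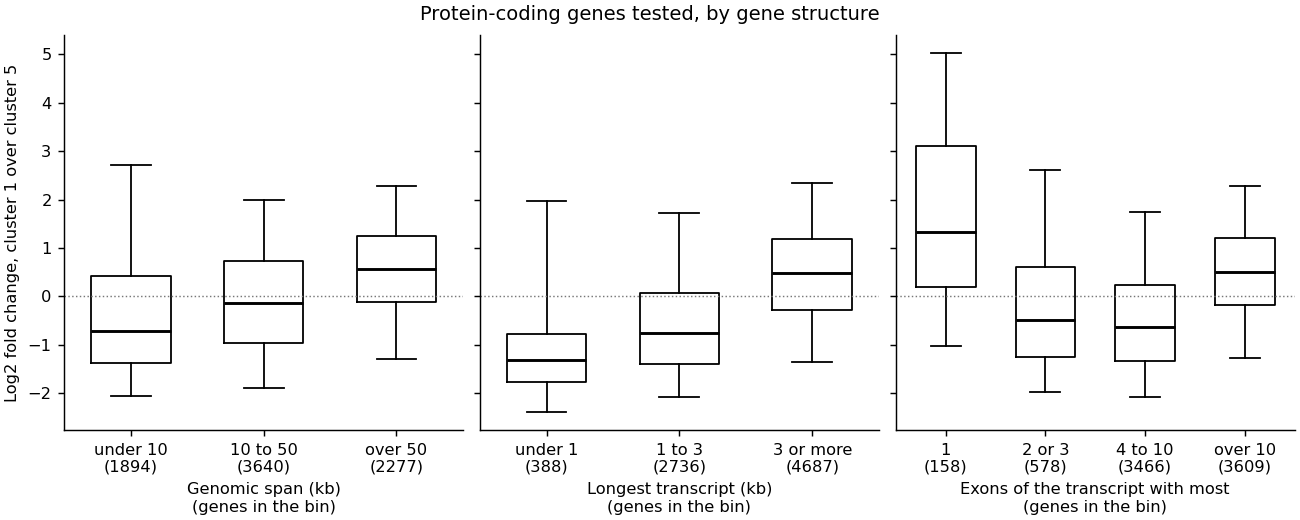
Log2 fold change of cluster 1 over cluster 5 for protein-coding genes, by genomic span, by longest transcript and by number of exons, with boxes from the lower to the upper quartile, a line at the median and whiskers from the 5th to the 95th percentile (number of genes in brackets). The medians are higher in longer genes and transcripts, and single-exon genes have the highest median.

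Markers of other cell types were scarce in both clusters. Cells with UMIs of at least 2 genes of any 1 of 10 such lists numbered 3 of 345 and 7 of 501 in cluster 1 and 14 of 277 and 14 of 272 in cluster 5. In cluster 5 they held 11.9% and 20.3% of the UMIs, most often by genes of the Schwann cell list (11 and 7 cells), and in cluster 1 2.21% and 4.44%. Cells were not thinned for this, so deep cells, more common in cluster 5, meet the criterion more readily. The summed Schwann cell list stood at 43.3 and 61.8 against 47.3 and 68.6 CPM (totals only), and at 78.2 and 90.2 CPM in the other 16 clusters. Of the 10 lists only 5 genes were tested. Notch3, placed here in the pericyte list, was higher, at 37.3 and 50 against 10 and 22.1 CPM (log2 fold change 1.48 ± 0.38, adjusted p = 8.0e-04). The rest of that list was not tested and was nearly absent. Rgs5 and Cspg4 had 0 UMIs in every sum, and Pdgfrb had 1, in mouse 1. Abcc9 had 0 and 2 against 4 and 7, and Kcnj8 1 and 2 against 3 and 0. The rise is thus of Notch3 alone and not of the pericyte list. The neutrophil gene S100a8 was lower, at 16.8 and 53.8 against 11.3 and 192 CPM (log2 fold change -1.27 ± 0.37, adjusted p = 0.0027). In mouse 1, however, S100a8 was higher in cluster 1, and it turned direction without cluster 5 of mouse 2 (log2 fold change 1.66, adjusted p = 0.0027). The macrophage gene Cd68 (24.2 and 10 against 22.5 and 7.03 CPM) and the Schwann cell genes Mbp (28 and 27.5 against 24.4 and 46.2 CPM) and Ncam1 (9.32 and 16.3 against 15.6 and 13.1 CPM) did not pass, with adjusted p of 0.7, 0.47 and 0.82. By summed level (totals only), neutrophil genes stood at 10.7 to 193 CPM, Schwann cell genes at 43.3 to 68.6 CPM and pericyte genes at 12.9 to 60.4 CPM over the 4 sums. T and NK cell genes stood at 0 to 4.12 CPM, B and plasma cell genes at 0 to 1.13 CPM, endothelial genes at 6.75 to 38.5 CPM, fibroblast genes at 1.13 to 15.1 CPM, adipocyte genes at 0.563 to 8.57 CPM and macrophage genes at 24.2 to 36.1 CPM over the 4 sums. Erythroid and platelet genes stood at 2766 CPM in cluster 1 of mouse 2, from 1 cell, and at 0 to 6.67 CPM elsewhere. Without all these cells 4202 of 7500 genes passed. The libraries shared 20 barcodes, of which 2 were in clusters 1 and 5 of both.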

How the data were processed

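Droplet libraries (10x 3' v3.1) of 2 tumors, 1 per mouse, were processed by the authors, per the labels and methods, with Cell Ranger 6.0.1 on mm10. The deposited matrices hold UMI counts, unnormalized, for 6175 and 7538 barcodes (63140346 and 61529883 UMIs). The authors removed droplets with few UMIs or genes, mitochondrial outliers, doublets (scDblFinder) and immune clusters, integrated the mice in Seurat and deposited cluster numbers, a mitochondrial fraction and signature scores (VAM) per cell. No doublet caller was run here. UMIs were summed per mouse and cluster and tested with edgeR 4.0.16 (R 4.3.3, limma 3.58.1), with filterByExpr, TMM, the mouse as a block and 1 residual degree of freedom. The clusters of a mouse share the animal and library, and deviations of same-mouse sums had a correlation of 0.194 across genes. In counts simulated for this comparison (7377 genes) edgeR recovered 24 of 93 genes changed 2-fold and 90 of 96 changed 4-fold and called 7 unchanged genes. Named genes were the 12 largest rises and falls among genes that passed, moved alike in both mice and reached 50 CPM in the higher cluster, all detected members of the mitochondrially encoded, nuclear long noncoding and rDNA-overlapping lists, and up to 4 of each other list. Positions are from GENCODE vM21 (8000 of 8006 genes), promoters from RefSeq. Members and lists were chosen with earlier results of these data known. Alternatives were DESeq2 1.42.0, other scalings, filters, depths and left-out sums.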

Additional observations from a re-analysis of the deposited data

How the results depend on the processing

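With 2 mice and 1 library each, a sum carries 1 animal, and a left-out sum was fitted without the block, with the lone sum assumed to vary like the other cluster. Genes with a few UMIs in a sum were often not detectable at this depth. Differences of 2-fold were often missed in the simulated counts, in which far fewer genes were changed than passed in the data. In the data some differences near 2-fold passed, such as Rpl31 (log2 fold change -0.94, adjusted p = 0.0036) and Ndufb3 (-0.97, 0.0013). Others did not, such as mt-Co3 (0.82, 0.077). Cluster 5 sums are mostly those of deep cells, and cells thinned to 500 UMIs or under 3000 UMIs (the latter chosen after seeing the data) leave 2463 and 4331 genes for the test. The cause of the changes that follow was not tested.

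Against 4272 calls, DESeq2 gave 1992, of which 1988 were shared, cells matched on depth 2388, cells thinned to 500 UMIs 1701 and cells under 3000 UMIs 2605. Without the replicate block 3742 genes passed, and the counts by list were 1 for basal and 0 for interferon response genes (higher) and 4 for acute phase and 0 for neutrophil genes (lower). Library totals in place of TMM gave 4365, with 2521 higher and 1844 lower against 2129 and 2143, and a median log2 fold change of 0.19 over all genes. Counts by list are of members called in 1 direction. They are of members higher in cluster 1 for the mitochondrially encoded, nuclear long noncoding, splicing, basal, proliferation, stress, interferon and pericyte lists, and of members lower in cluster 1 for the others. Mitochondrially encoded genes (7) numbered 11 by DESeq2, 4 against a fold of 1.5 and with no filter, 12 on matched cells and with library totals, and 13 on thinned cells and on those under 3000 UMIs. Mitochondrial ribosomal proteins (59) numbered 30 by DESeq2, 33 on matched and 26 on thinned cells. Pan-luminal genes (7) numbered 3 on matched cells and 2 against a fold of 1.5, on thinned cells and under 3000 UMIs. DESeq2 also gave 1 basal, 0 mesenchymal, 2 proliferation, 0 interferon, 3 antigen presentation, 2 acute phase, 0 pericyte and 0 neutrophil genes. A fold of 1.5 gave 1 basal, 2 heat shock, 0 interferon and 3 acute phase genes. Matched cells gave 2 proliferation, 3 stress, 0 interferon, 3 antigen presentation, 3 acute phase, 7 secretory and 0 pericyte genes. Thinned cells gave 3 milk, 1 basal, 1 proliferation, 3 heat shock, 3 stress, 0 interferon, 2 antigen presentation, 3 acute phase and 6 secretory genes. Cells under 3000 UMIs gave 3 milk, 1 proliferation, 2 stress, 0 interferon, 4 acute phase and 7 secretory genes. Cells of at least 1000 UMIs gave 1 basal and 2 proliferation genes, no filter gave 1 basal and 1 interferon gene, and leaving out mitochondrially encoded or rDNA-overlapping genes gave 1 basal gene. The difference in median genes per cell was -177.75 and -38 after thinning, and that in mitochondrial share was 4.93 percentage points by cell means and 4.50 by summed UMIs.

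With each sum left out in turn, calls ran from 1569 to 3934. By list they ran from 0 to 8 (mitochondrially encoded), 47 to 79 (cytosolic ribosomal), 18 to 55 (mitochondrial ribosomal), 2 to 8 (nuclear long noncoding), 7 to 15 (splicing), 1 to 5 (pan-luminal), 1 to 4 (mature luminal and acute phase), 2 to 5 (milk), 0 to 2 (basal and mesenchymal), 2 to 4 (proliferation), 0 to 5 (heat shock), 2 to 7 (stress), 5 to 8 (hypoxia), 0 to 1 (interferon, pericyte and neutrophil), 0 to 6 (antigen presentation), 7 to 12 (secretory) and 7 to 13 (cytoskeleton). Among named genes the log2 fold change turned in some of these fits. It ran from -9.37 to 0.76 for Amtn, -2.48 to 1.29 for Wfdc17 and -0.068 to 1.76 for Xist, each turned without cluster 5 of mouse 1. It ran from -2.55 to 1.66 for S100a8 and -0.79 to 0.13 for Mbp, both turned without cluster 5 of mouse 2. It ran from -0.69 to 1.13 for Cd68, at -0.69 without cluster 1 of mouse 1 and -0.53 without cluster 5 of mouse 2, from -0.64 to 0.10 for Ncam1, turned without cluster 1 of mouse 1, and from -0.94 to 0.092 for Pvt1, turned without cluster 1 of mouse 2. It also turned for Ncam1 with library totals (0.030) and for Ifi27l2a on thinned cells (-0.64) and cells under 3000 UMIs (-1.11).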

Other observations

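Further gene groups, picked by symbol after their values were seen and so given as descriptions, divided along the same lines. Of 33 replication-dependent histone genes tested, whose transcripts mostly lack a poly(A) tail, 30 were higher in cluster 1 and none lower, with a median log2 fold change of 3.66. Of 110 zinc finger genes with Zfp symbols 42 were higher and 5 lower, with a median of 0.66. Of 37 proteasome genes 32 were lower and none higher, with a median of -1.44, and of 12 genes of translation initiation factor 3 9 were lower and none higher, with a median of -1.87. Over all genes tested 26.6% were higher and 26.8% lower.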
